A study of Homo sapiens with 8 samples.

Results

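The 10 genes described here encode the core machinery that folds and degrades proteins inside human mitochondria: the chaperones HSPD1, HSPE1, HSPA9, TRAP1, GRPEL1 and DNAJA3, and the proteases or protease subunits LONP1, CLPP, CLPX and HTRA2. They were taken by gene symbol from the 55075 genes in the deposited tables, and each symbol matched 1 row in every table. The matching used no measured value, but the genes were chosen with earlier results of these data known. The libraries come from HCT116, a line grown from a human colon carcinoma, in 4 groups of 2. The FBXW7 knockout (KO) recovery group was heated at 42 °C for 1 h and returned to 37 °C for 2 h, and the KO heat shock group was taken at the end of the same heating. The wild-type (WT) recovery and WT heat shock groups were parental HCT116 cells given the same treatments. All 4 groups were therefore heated, and cells that were never heated were not analysed here, so no value below is a response to heat itself. FBXW7 is the substrate-binding subunit of an SCF ubiquitin ligase. The labels do not tell how the knockout was made or whether it is a single clone. The series design text calls the 2 libraries of a group biological replicates, but nothing says that they came from separate cultures. The p-values therefore reflect library-to-library spread, which may be technical.

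Most mitochondrial proteins are made in the cytosol and pulled unfolded through the membranes, so the matrix needs its own folding machines. HSPA9, the matrix HSP70, drives import and early folding. DNAJA3 is a J-protein co-chaperone of HSPA9 in folding, and GRPEL1 is its nucleotide exchange factor. HSPD1 (HSP60) forms the barrel in which proteins finish folding and HSPE1 (HSP10) is its lid, while TRAP1 is the mitochondrial member of the HSP90 family. LONP1 is an ATP-driven matrix protease, CLPX unfolds substrates and feeds them to the peptidase CLPP, and HTRA2 is a serine protease of the intermembrane space. Several of these genes are classic targets of the mitochondrial unfolded protein response, a transcriptional program tied to ATF5, ATF4 and CHOP. HSPD1 and HSPE1 are also known targets of HSF1, which drives heat shock transcription and is a reported FBXW7 substrate.

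HSPD1 and HSPE1 lie head to head on chromosome 2 and are read from opposite strands. The sequences below come from the RefSeq promoter table, build GRCh38.p14, which holds windows from 250 bases before to 50 bases after each transcript start. The first stretch is the upstream end of the HSPD1 window whose start is at base 197499840. It is shown because it holds a heat shock element, the binding motif of heat shock factors, written here as alternating units of GAA and TTC with any 2 bases between them. Capitals mark the 4 units with their spacers, at chr2:197500068-197500085.
HSPD1, chr2:197499971-197500090, minus strand: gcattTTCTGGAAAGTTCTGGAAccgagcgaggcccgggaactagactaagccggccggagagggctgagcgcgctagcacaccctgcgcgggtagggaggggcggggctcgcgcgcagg
The element lies between that HSPD1 start, 228 bases away, and the HSPE1 start at 197500379, 294 bases away. Another HSPD1 start, at 197500274, is 105 bases from the HSPE1 start, and the element is 189 bases downstream of it in the direction of HSPD1. GAANNTTCNNGAA, or TTCNNGAANNTTC on the other strand, was found in 0.489% of the 34943 promoter windows of all genes. Among the 8 of the 10 genes that have an entry (all but CLPP and GRPEL1) it was found for HSPD1 alone, in the window shown. The shorter palindrome TTCNNGAA was in 7.74% of all windows, and among these genes in that HSPD1 window and at HSPA9. The percentages count windows and the members are counted as genes, so they cannot be compared directly.

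The second set shows the E-box CACGTG, the letters bound by MYC and related factors, because more of these genes held it than any other motif searched. MYC is a known FBXW7 substrate. The E-box is in capitals and reads the same on both strands.
HSPE1, chr2:197500340-197500378, plus strand: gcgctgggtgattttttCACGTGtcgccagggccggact
HSPA9, chr5:138575402-138575437, minus strand: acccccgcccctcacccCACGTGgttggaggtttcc
LONP1 upper site, chr19:5720336-5720375, minus strand: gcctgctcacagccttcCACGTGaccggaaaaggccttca
LONP1 lower site, chr19:5720173-5720212, minus strand: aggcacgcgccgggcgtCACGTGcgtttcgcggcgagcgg
The HSPE1 site begins 22 bases before its start and is the same site as one 88 bases before the nearer HSPD1 start. The HSPA9 site begins 19 bases before the start, and those of LONP1 begin 212 and 49 bases before it. Counting genes, 4 of 8 held an E-box, and counting windows over all genes 7.23% did. These shares cannot be compared directly, since HSPD1 and HSPE1 share a site and the motif was picked for its count among these genes. The composite CHOP and ATF4 motif TGATGCAA, or TTGCATCA, was in 0.87% of all windows and in none of the 8 genes. These matches describe letters in a window and are no evidence of binding in these cells.

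Total counts per library were 15507896 to 34387618, and 17471 genes passed the filter on low counts, all 10 members among them. The 10 genes took 0.298% to 0.369% of all counts. FBXW7 was at 14.0 and 13.8 CPM (read counts scaled to a common library size) in KO recovery and 17.4 and 14.9 in KO heat shock, against 22.97 and 21.7 CPM in WT recovery and 33.5 and 31.4 in WT heat shock. Its KO over WT log2 change was -0.68 ± 0.11 at recovery (adjusted p = 8.03e-05) and -1.01 ± 0.10 at heat shock (adjusted p = 1.88e-06), and reads remained in every KO library. Of 8 colon epithelial markers 7 were tested, with a summed level of 1936 to 2862 CPM, while LGALS4 had 3 counts in all. Fibroblast markers summed to 6.57 to 10.2 CPM, nearly all of it COL1A1, and LUM was at 0. Immune and erythroid markers summed to 16.5 to 30.3 CPM, nearly all of it CD68, and CD3E was at 0. The count columns do not say which of them is recovery. That was taken from the naming order of the comparison in each file and from the sign of the authors' fold change, and a wrong order would turn every recovery change round.

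Set per kilobase of transcript, which allows genes to be compared, HSPD1 was the most abundant of the 10 in every group. It averaged 659 CPM per kilobase in KO recovery, 623 in KO heat shock, 465 in WT recovery and 544 in WT heat shock. Its lid HSPE1 came second in 3 groups, at 445 ± 65.2 CPM per kilobase in KO recovery, 202 ± 6.50 in WT recovery and 285 ± 35.5 in WT heat shock (SD, n = 2 libraries). In KO heat shock HSPE1 averaged 168 ± 9.67 CPM per kilobase and stood below HSPA9 at 184.5. TRAP1, between 135 and 193, and HSPA9, between 130.2 and 184.5, made up the next tier, followed by CLPP at 59.7 to 91.8. LONP1, DNAJA3 and GRPEL1 lay between 23.8 and 67.7 CPM per kilobase, and their order changed with the group. CLPX, at 11.2 to 16.1, and HTRA2, at 8.45 to 10.8, were last in every group. Of all neighbours in these orders only GRPEL1 and LONP1 in KO heat shock had overlapping libraries. The orders rest on the transcript lengths used. Before division by length, HSPA9 averaged 767 CPM in KO recovery, above HSPE1 at 423 and TRAP1 at 408.

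**Figure D1:**
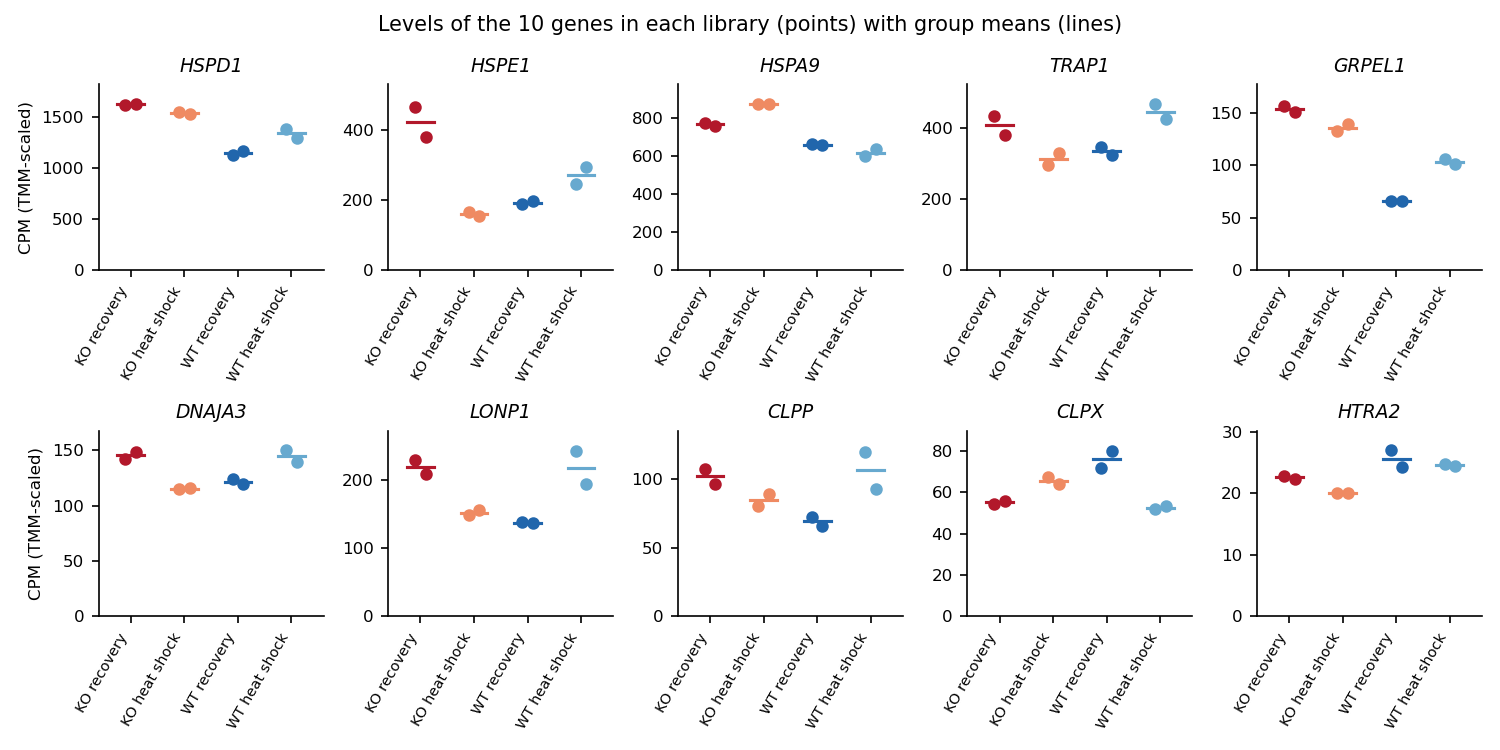
Level of each gene in each library in TMM-scaled CPM (vertical axis from 0, scale set per gene), with groups along the horizontal axis; points are libraries and lines are means of 2. HSPE1 stands at 467 and 379 CPM in KO recovery, above the 153 to 295 CPM of the other groups, and GRPEL1 stands at 65.9 and 66.0 CPM in WT recovery, below every other library.

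Recovery was first compared with heat shock within KO cells, to ask how the machinery moves in the hours after heat in the FBXW7 knockout line. In KO, HSPE1 rose 2.64-fold, LONP1 rose 1.43-fold, and TRAP1, DNAJA3 and CLPP rose by smaller steps, while CLPX fell. Of the 10 genes 5 were higher and 1 lower at an adjusted p under 0.05 by edgeR's quasi-likelihood test, among a background of 41.8% of all 17471 genes called (20.6% higher and 21.1% lower). HSPD1, HSPA9, GRPEL1 and HTRA2 did not pass. The 10 changes had a median of 0.22 on the log2 scale, against -0.02 over all tested genes. Recovery and heat shock libraries did not overlap for any of the 10, which was true of 74.1% of all genes. Leaving out a KO library also takes out its pair, so the KO change then rests on 1 pair, and fewer of the 10 genes were called. Over all single libraries left out, HSPE1 ran from 1.31 to 1.49, LONP1 from 0.42 to 0.62 and TRAP1 from 0.22 to 0.55. DNAJA3 ran from 0.31 to 0.38, CLPP from 0.11 to 0.42 and CLPX from -0.31 to -0.17.

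In WT the same comparison ran the other way for most members. LONP1, GRPEL1, CLPP, HSPE1, TRAP1 and DNAJA3 fell, with log2 changes of -0.66, -0.65, -0.61, -0.49, -0.41 and -0.25 in that order, and CLPX rose by 0.53. That made 6 genes lower and 1 higher, among a background of 50.8% of all genes called (26.0% lower and 24.8% higher). The median change of the 10 genes was -0.33, against 0.01 over all tested genes. Groups did not overlap for 9 of the 10, as for 75.4% of all genes, and HTRA2 was the exception. HSPD1, HSPA9 and HTRA2 did not pass.

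The difference between these responses was tested as an interaction. It was positive for 6 genes and negative for CLPX, so 7 of the 10 were called, among a background of 56.3% of all genes (28.5% positive and 27.8% negative). HSPE1 differed most, by 1.89 ± 0.14 on the log2 scale (adjusted p = 5.32e-09). LONP1 followed at 1.18 ± 0.14, then CLPP at 0.87 ± 0.14, GRPEL1 at 0.82 ± 0.13, TRAP1 at 0.79 ± 0.15 and DNAJA3 at 0.59 ± 0.13. CLPX differed by -0.77 ± 0.13 (adjusted p = 5.65e-05). The differences of HSPD1 at 0.31 ± 0.14 (adjusted p = 0.0708), HSPA9 at -0.29 ± 0.14 (adjusted p = 0.0854) and HTRA2 at 0.12 ± 0.15 (adjusted p = 0.531) did not pass. The median over the 10 genes was 0.69, against -0.03 over all tested genes. None of the 7 calls was lost when any single library was left out. With length and GC offsets those of TRAP1 (0.29), DNAJA3 (0.13) and CLPX (-0.26) were lost, and HSPD1 was called at 0.58 ± 0.12 (adjusted p = 0.000466) and HTRA2 at -0.52 ± 0.14. HSPD1 was also called without WT recovery replicate 2 or WT heat shock replicate 2, at 0.39 in both cases, and at 0.38 with no filter on low counts.

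**Figure D2:**
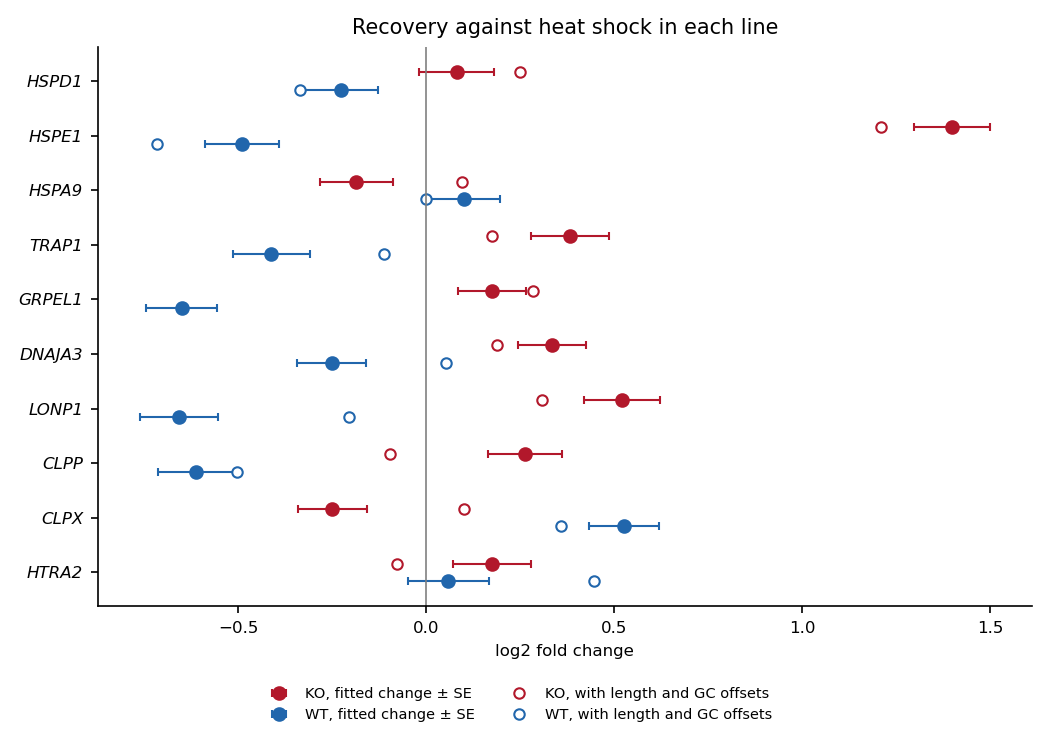
Log2 fold change of recovery over heat shock (horizontal axis) for each gene in KO (red) and WT (blue); filled points with bars are the fitted change ± SE, and open points the change when each library was offset for transcript length and GC content. HSPE1 in KO stands apart at 1.40, LONP1, CLPP, TRAP1 and DNAJA3 lie right of 0 in KO and left of it in WT, and the open points of HSPA9, CLPP, CLPX and HTRA2 in KO cross 0.

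KO was also set against WT at each condition, which asks how far the lines differed at the end of heating and after recovery. At recovery 8 of the 10 genes were higher in KO, with GRPEL1 at 2.33-fold and HSPE1 at 2.20-fold (log2 1.18 and 1.35 with length and GC offsets), CLPX was lower and HTRA2 did not pass. At heat shock all 10 were called, with HSPA9, GRPEL1, CLPX and HSPD1 higher in KO and HSPE1, LONP1, TRAP1, DNAJA3, CLPP and HTRA2 lower. The backgrounds were 63.1% of all genes called at recovery (31.8% higher and 31.3% lower) and 55.6% at heat shock (27.4% higher and 28.2% lower). Median changes of the 10 genes were 0.39 at recovery and -0.31 at heat shock, against -0.01 and -0.03 over all tested genes. In both conditions KO and WT libraries did not overlap for any of the 10, which was so for 83.5% of all genes at recovery and 76.1% at heat shock. These comparisons use the same libraries as the recovery comparisons, so they restate part of the same values. With length and GC offsets 5 of the 10 were called at heat shock, 2 higher and 3 lower, and without KO heat shock replicate 1 there were 6. With upper-quartile scaling 5 genes were higher and 2 lower at recovery, and that scaling moved the median of all genes there to -0.18.

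**Figure D3:**
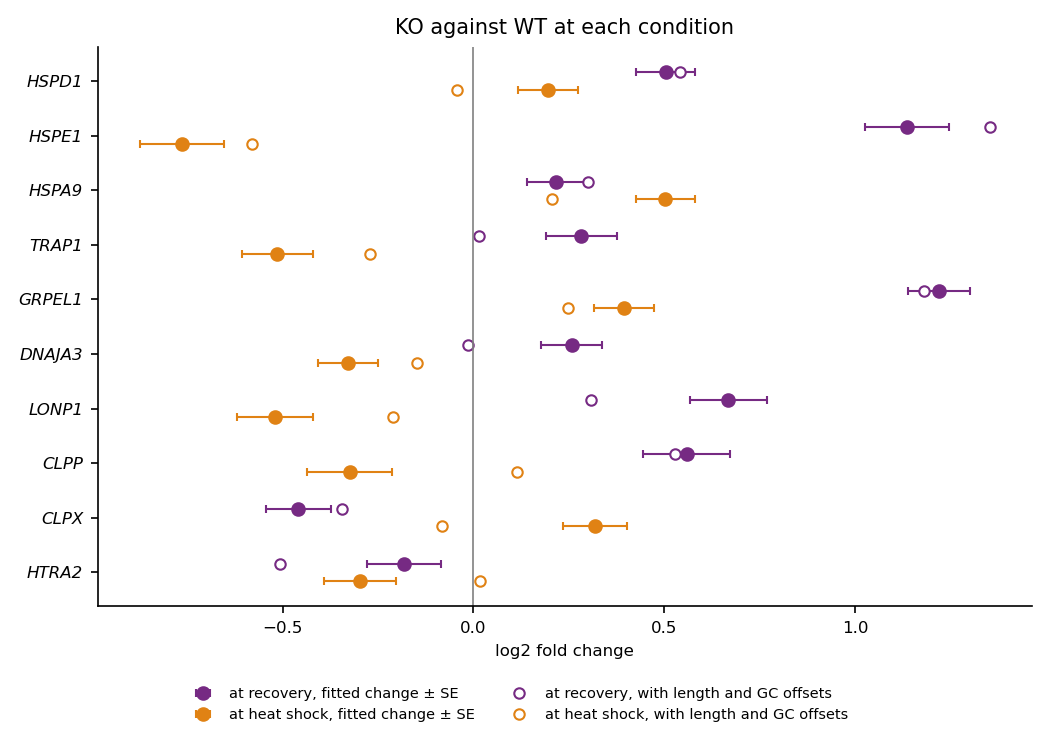
Log2 fold change of KO over WT (horizontal axis) for each gene at recovery (purple) and at heat shock (orange); filled points with bars are the fitted change ± SE, and open points the change with offsets for transcript length and GC content. At recovery GRPEL1 at 1.22 and HSPE1 at 1.14 stand farthest right, and HSPE1 at heat shock, at -0.76, stands farthest left.

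HSPE1 (ENSG00000115541, chr2:197499994-197503457 on the plus strand of GRCh38, 3464 bases) had the widest swing of the set. It had 467 and 379 CPM in KO recovery and 166 and 153 CPM in KO heat shock. In WT it had 188 and 197 CPM in recovery and 247 and 295 CPM in heat shock. KO recovery was therefore the highest group and KO heat shock the lowest, with no overlap between any of the groups. The KO change was 1.40 ± 0.10 on the log2 scale (adjusted p = 4.24e-09), with pairs at 1.49 and 1.31. The WT change was -0.49 ± 0.10 (adjusted p = 0.000465), with pairs at -0.40 and -0.58. KO exceeded WT by 1.14 ± 0.11 at recovery (adjusted p = 6.65e-07) while its KO over WT change was -0.76 ± 0.11 at heat shock (adjusted p = 3.99e-05). All 5 of its calls were kept under every alternative run, single libraries left out included.

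HSPD1 (ENSG00000144381, chr2:197486581-197516737 on the minus strand), which shares the promoter region with HSPE1, moved far less. It had 1614 and 1623 CPM in KO recovery, 1540.5 and 1520.3 in KO heat shock, 1120.2 and 1162 in WT recovery, and 1379 and 1294 in WT heat shock. Both KO groups lay above both WT groups in every library. The recovery changes, 0.08 ± 0.10 in KO (adjusted p = 0.549) and -0.23 ± 0.10 in WT (adjusted p = 0.0653), did not pass. Both did with length and GC offsets, at 0.25 ± 0.09 in KO (adjusted p = 0.0312) and -0.33 ± 0.09 in WT (adjusted p = 0.00298). HSPD1 was higher in KO than in WT by 0.50 ± 0.08 at recovery (adjusted p = 5.55e-05) and by 0.20 ± 0.08 at heat shock (adjusted p = 0.0439). The heat shock value changed sign to -0.04 with length and GC offsets, and missed the threshold when either KO heat shock library, KO recovery replicate 1, either WT recovery library or WT heat shock replicate 2 was left out (0.14 to 0.20).

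As a ratio within each library, which no scaling between libraries can change, there were 28.9 and 23.4 HSPE1 counts per 100 HSPD1 counts in KO recovery, against 10.8 and 10.1 in KO heat shock. WT recovery had 16.8 and 16.9, against 17.9 and 22.8 in WT heat shock. The lid transcript was thus more abundant relative to the barrel transcript in both KO recovery libraries than in any other library, and least abundant in both KO heat shock libraries. Short transcripts moved in the same direction more generally. The 132 coding genes within 20% of HSPE1's transcript length (950 bases) and 3 points of its GC content (50.2%) had median log2 changes of 0.38 in KO recovery and -0.11 in WT recovery. With offsets for length and GC the HSPE1 changes were 1.21 ± 0.08 in KO and -0.72 ± 0.08 in WT, and the difference between them was 1.92 ± 0.12.

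The HSPE1 gene lies wholly inside the annotated span of HSPD1 on the other strand, and several other members overlap a gene on the opposite strand. The libraries were made strand-specific, but no source used here names the strand setting of the counting. Reads of a pair such as HSPD1 and HSPE1 may therefore not have been told apart where they overlap. Processed pseudogenes of HSPD1 and HSPE1 can also share their reads. Summed over the 17 HSPD1 copies listed, counts were 33 and 28 in KO recovery, 59 and 100 in KO heat shock, 237 and 276 in WT recovery, and 39 and 38 in WT heat shock. The 23 HSPE1 copies had 72 and 66 counts in WT recovery and 8 to 11 in every other library. Copies stood highest in WT recovery, where they were 1.41% of HSPD1 and 2.33% of HSPE1 counts at most, and adding them to the member changed no call.

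**Figure D4:**
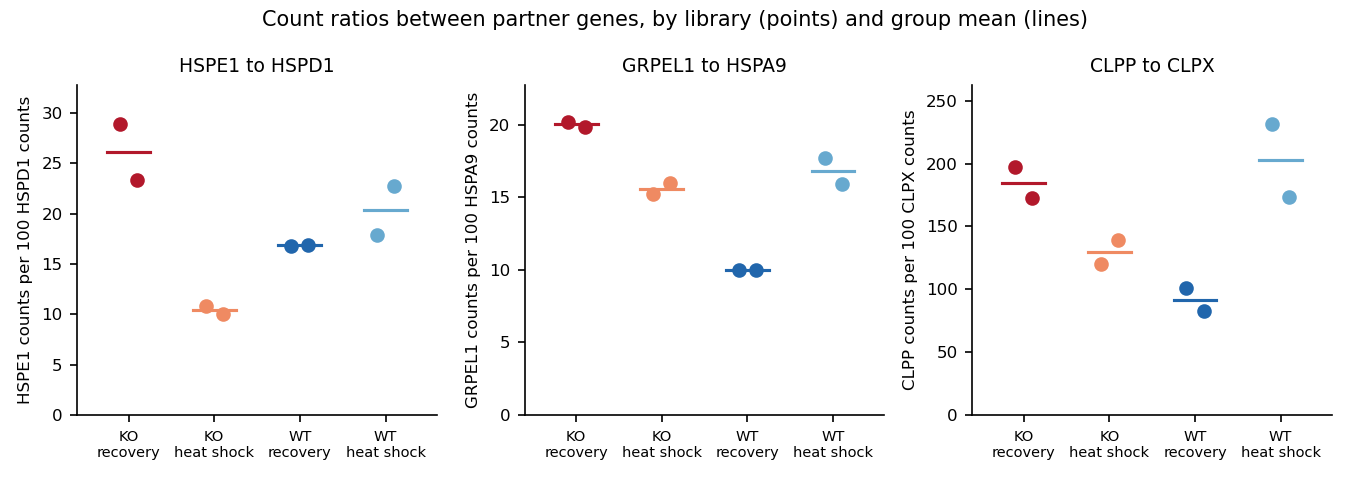
Counts of one gene per 100 counts of its partner in the same library (vertical axis from 0) for HSPE1 to HSPD1, GRPEL1 to HSPA9 and CLPP to CLPX; points are libraries and lines are means of 2. HSPE1 per 100 HSPD1 runs from 10.1 in a KO heat shock library to 28.9 in a KO recovery library, and GRPEL1 per 100 HSPA9 is lowest, at 9.98 and 10.02, in WT recovery.

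HSPA9 (ENSG00000113013, chr5:138553756-138575724, minus strand) stayed close to level across recovery in both lines and was higher in KO throughout. It had 775 and 758 CPM in KO recovery and 872 and 873 in KO heat shock, against 660.2 and 659 CPM in WT recovery and 597 and 634 in WT heat shock. No KO library came down to the level of any WT library. Its recovery changes of -0.19 ± 0.10 in KO (adjusted p = 0.137) and 0.10 ± 0.10 in WT (adjusted p = 0.416) did not pass. HSPA9 was higher in KO than in WT by 0.22 ± 0.08 at recovery (adjusted p = 0.0235) and by 0.50 ± 0.08 at heat shock (adjusted p = 7.70e-05). The recovery call was lost when KO recovery replicate 1, either WT recovery library or either KO heat shock library was left out (0.21 to 0.22), and the value was 0.05 with upper-quartile scaling. The offsets for length and GC gave 0.30 at recovery and 0.20 at heat shock, both called.

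GRPEL1 (ENSG00000109519, chr4:7058906-7068197, minus strand), the exchange factor that resets HSPA9, was, with HSPE1, one of the genes farthest apart between the lines at recovery. It had 157 and 150.5 CPM in KO recovery and 132 and 139.6 in KO heat shock. WT had 65.9 and 66.0 CPM in recovery and 106 and 101 in heat shock. WT recovery was the lowest group by a wide gap and KO recovery the highest. KO exceeded WT by 1.22 ± 0.08 at recovery (adjusted p = 1.67e-08) and by 0.40 ± 0.08 at heat shock (adjusted p = 0.000621). The KO recovery change was 0.17 ± 0.09 (adjusted p = 0.134), and that in WT was -0.65 ± 0.09 (adjusted p = 1.65e-05). The KO change passed when any WT library was left out (0.19 in each case), and at 0.28 ± 0.08 with length and GC offsets. Over all single libraries left out it ran from 0.11 to 0.24. Genes of like length and GC content had a median of -0.12 in KO recovery and 0.05 in WT recovery. Per 100 HSPA9 counts there were 20.2 and 19.85 GRPEL1 counts in KO recovery, 15.2 and 15.99 in KO heat shock, 9.98 and 10.02 in WT recovery, and 17.7 and 15.9 in WT heat shock.

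DNAJA3 (ENSG00000103423, chr16:4425805-4456775, plus strand), a J-protein co-chaperone of HSPA9, made smaller moves. It had 142 and 148 CPM in KO recovery and 115 and 116 in KO heat shock, and 124 and 119 CPM in WT recovery against 150.3 and 139 in WT heat shock. The KO rise of 0.34 ± 0.09 (adjusted p = 0.00609) did not pass without any 1 of the KO libraries (0.31 to 0.38), nor with length and GC offsets (0.19 ± 0.08). The WT change of -0.25 ± 0.09 (adjusted p = 0.0291) missed the threshold when any 1 of the 8 libraries was left out (-0.27 to -0.25) and was 0.05 with the offsets. At recovery DNAJA3 was higher in KO than in WT by 0.26 ± 0.08 (adjusted p = 0.0114). That call was lost without KO recovery replicate 2 (0.24) or WT recovery replicate 2 (0.22), and the value was -0.01 with the offsets. At heat shock it was lower in KO, at -0.33 ± 0.08 (adjusted p = 0.00278), and with the offsets the value was -0.15 and did not pass (adjusted p = 0.0668). The 608 coding genes of like length and GC content had median changes of 0.16 in KO recovery and -0.29 in WT recovery.

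TRAP1 (ENSG00000126602, chr16:3651639-3717597, minus strand) followed the same pattern as DNAJA3. It had 434 and 382 CPM in KO recovery and 296.5 and 329 in KO heat shock, against 346 and 325 CPM in WT recovery and 467 and 426 in WT heat shock. WT heat shock overlapped with KO recovery, and WT recovery with KO heat shock. TRAP1 rose by 0.38 ± 0.10 in KO (adjusted p = 0.00578), with pairs at 0.55 and 0.22, and fell by 0.41 ± 0.10 in WT (adjusted p = 0.00271). The KO call was lost without KO recovery replicate 1 (0.24) or KO heat shock replicate 1 (0.22). TRAP1 was higher in KO than in WT by 0.28 ± 0.09 at recovery (adjusted p = 0.0161), a call lost without KO recovery replicate 1 (0.19) or WT recovery replicate 2 (0.23). It was lower in KO, at -0.51 ± 0.09, at heat shock (adjusted p = 0.000304). With length and GC offsets the values were 0.18 in KO recovery, -0.11 in WT recovery and 0.02 for KO against WT at recovery, none of them called. DNASE1 overlaps TRAP1 on the other strand over 28505 bases and moved alike, by 0.82 ± 0.10 in KO recovery and -0.36 ± 0.10 in WT recovery.

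LONP1 (ENSG00000196365, chr19:5691834-5720572, minus strand) moved in opposite directions in the lines. It had 230 and 208.5 CPM in KO recovery and 149 and 156 in KO heat shock. WT had 138 and 137 CPM in recovery and 242 and 195 in heat shock. KO recovery and WT heat shock were the high groups and overlapped each other, and WT recovery lay below all of the rest. The gene rose by 0.52 ± 0.10 in KO (adjusted p = 0.000454), with pairs at 0.62 and 0.42, and fell by 0.66 ± 0.10 in WT (adjusted p = 3.63e-05), with pairs at -0.81 and -0.51. LONP1 was higher in KO than in WT by 0.67 ± 0.10 at recovery (adjusted p = 4.65e-05) and lower, at -0.52 ± 0.10, at heat shock (adjusted p = 0.000501). Without KO heat shock replicate 1 the KO rise was 0.42 and did not pass. All 5 calls remained with length and GC offsets, at smaller values: 0.31 ± 0.08 in KO recovery, -0.20 ± 0.08 in WT recovery and 0.51 ± 0.12 for their difference. The 486 coding genes of like length and GC content had medians of 0.18 in KO recovery and -0.28 in WT recovery. RPL36, a ribosomal protein gene on the other strand, overlaps LONP1 over 43 bases and changed by 1.21 ± 0.10 in KO recovery and -0.31 ± 0.10 in WT recovery.

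CLPP (ENSG00000125656, chr19:6361452-6368910, plus strand) and its partner CLPX (ENSG00000166855, chr15:65148219-65185342, minus strand) moved in opposite directions. CLPP had 107 and 96.2 CPM in KO recovery and 80.6 and 89.0 in KO heat shock, against 72.1 and 66.0 CPM in WT recovery and 120 and 92.6 in WT heat shock. CLPX had 54.5 and 55.9 CPM in KO recovery and 67.2 and 63.9 in KO heat shock, against 71.6 and 79.96 CPM in WT recovery and 51.7 and 53.4 in WT heat shock. The peptidase transcript was thus lowest, and the unfoldase transcript highest, in WT recovery.

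In KO, CLPP rose by 0.26 ± 0.10 (adjusted p = 0.0404) and CLPX fell by 0.25 ± 0.09 (adjusted p = 0.0343), and these were the KO recovery calls nearest the threshold. The KO rise of CLPP was lost without KO recovery replicate 1 (0.14), KO heat shock replicate 1 (0.11) or KO heat shock replicate 2 (0.41), and the KO fall of CLPX without any 1 of the KO libraries (-0.31 to -0.17). With length and GC offsets they changed sign, to -0.10 for CLPP and 0.10 for CLPX. In WT, CLPP fell by 0.61 ± 0.10 (adjusted p = 6.99e-05) and CLPX rose by 0.53 ± 0.09 (adjusted p = 0.000130), and both calls were kept under every alternative run. At recovery CLPP was higher in KO by 0.56 ± 0.11 (adjusted p = 0.000630) and CLPX lower, at -0.46 ± 0.08 (adjusted p = 0.000277). At heat shock CLPP was lower in KO, at -0.32 ± 0.11 (adjusted p = 0.0230), and CLPX higher by 0.32 ± 0.08 (adjusted p = 0.00502). The heat shock call of CLPP was lost without KO heat shock replicate 1 (-0.26) or WT heat shock replicate 1 (-0.17), that of CLPX without KO heat shock replicate 1 (0.28), and both values changed sign with the offsets.

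The transcripts of this pair differ in make-up: CLPP's is 1157 bases long with 63.4% GC and CLPX's 4695 bases with 41.3% GC. Coding genes of like length and GC content had medians of 0.49 for CLPP (170 genes) and -0.35 for CLPX (853 genes) in KO recovery, and -0.37 and 0.20 in WT recovery. CLPP counts per 100 CLPX counts were 197 and 172 in KO recovery, 120 and 139 in KO heat shock, 101 and 82.6 in WT recovery, and 232 and 173 in WT heat shock. With the offsets the difference of the recovery responses was 0.41 ± 0.11 for CLPP (adjusted p = 0.00493), still called, and -0.26 ± 0.11 for CLPX (adjusted p = 0.0548), not called.

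HTRA2 (ENSG00000115317, chr2:74529377-74533348, plus strand) was the least abundant of the 10, and neither of its recovery changes passed the test. It had 22.9 and 22.3 CPM in KO recovery and 20.03 and 20.01 in KO heat shock, against 27.0 and 24.3 CPM in WT recovery and 24.7 and 24.5 in WT heat shock. Every KO library lay below every WT library. The recovery changes were 0.17 ± 0.10 in KO (adjusted p = 0.190) and 0.06 ± 0.11 in WT (adjusted p = 0.675). KO was lower at heat shock, at -0.30 ± 0.10 (adjusted p = 0.0158), a call lost without either KO heat shock library (-0.30 in both cases) and not called with no filter or with DESeq2 (-0.28 in both cases). The difference at recovery was -0.18 ± 0.10 (adjusted p = 0.113), and it was called with upper-quartile scaling (-0.35, adjusted p = 0.00542) and with length and GC offsets (-0.51, adjusted p = 0.000120). The 665 coding genes of like length and GC content had medians of 0.25 in KO recovery and -0.30 in WT recovery. With length and GC offsets, WT recovery gave a rise of 0.45 ± 0.10 (adjusted p = 0.000792) and set the KO response below that of WT, at -0.52 ± 0.14 (adjusted p = 0.00316), the reverse of the sign without them. AUP1 overlaps HTRA2 on the other strand over 563 bases and changed by 0.62 ± 0.09 in KO recovery and -0.46 ± 0.10 in WT recovery. LOXL3 overlaps HTRA2 on that strand over 935 bases and had values close to those of HTRA2. It changed by 0.21 ± 0.12 in KO recovery and 0.08 ± 0.12 in WT recovery. Its KO over WT values were -0.32 ± 0.13 at heat shock and -0.18 ± 0.13 at recovery. Whether reads of HTRA2 and these genes were told apart was not tested.

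Other parts of the mitochondrial protein machinery were read through 5 further gene lists. Of 23 genes of the import machinery, which delivers the substrates of these chaperones, 12 rose and none fell in KO recovery, and 1 rose and 16 fell in WT recovery. Over all genes 41.8% were called in KO recovery (20.6% higher and 21.1% lower) and 50.8% in WT recovery (24.8% higher and 26.0% lower). Medians of the list were 0.24 and -0.46, against -0.02 and 0.01 over all genes. TIMM8B, a small chaperone of the intermembrane space, rose by 2.10 ± 0.11 in KO and fell by 0.78 ± 0.11 in WT. TIMM13, another of these small chaperones, rose by 0.97 ± 0.10 in KO and fell by 1.27 ± 0.11 in WT. TOMM20, an import receptor of the outer membrane, was the 1 gene that rose in WT recovery, by 0.46 ± 0.10. At recovery 19 of the 23 were higher in KO than in WT and 1, TOMM20, was lower, while 63.1% of all genes were called (31.8% higher). TIMM17B, a subunit of the inner membrane channel, was higher in KO by 2.00 ± 0.12 at recovery and 1.97 ± 0.12 at heat shock.

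Of 12 other mitochondrial chaperones and assembly factors, 4 rose (PAM16, DNLZ, CLPB and BCS1L) and 1 fell (GRPEL2) in KO recovery, and 2 rose and 6 fell in WT recovery. The share called in KO was close to the 41.8% of all genes, and in WT recovery 50.8% of all genes were called. GRPEL2, the paralog of GRPEL1, fell by 0.71 ± 0.10 in KO recovery. CLPB, a disaggregase of the intermembrane space, rose by 0.46 ± 0.10 in KO and fell by 0.96 ± 0.10 in WT. Of 13 other mitochondrial proteases and processing peptidases, 1 rose and 3 fell in KO recovery, and 4 rose and 2 fell in WT recovery, shares below the 41.8% of all genes called in KO and the 50.8% called in WT. PMPCA, the alpha subunit of the matrix processing peptidase, rose by 0.42 ± 0.09 in KO and fell by 0.82 ± 0.09 in WT. LACTB fell by 0.77 ± 0.14 in KO and rose by 1.21 ± 0.15 in WT, and YME1L1 fell by 0.46 ± 0.10 in KO and rose by 0.33 ± 0.10 in WT. OMA1 fell by 0.44 ± 0.10 in KO and was not called in WT. At heat shock 9 of these 13 were higher in KO than in WT and none was lower, with YME1L1 at 0.70 ± 0.09 and OMA1 at 0.69 ± 0.10. Of all genes 55.6% were called there (27.4% higher and 28.2% lower).

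Of 12 cytosolic heat shock chaperones, listed as the matching response outside mitochondria, 9 rose and none fell in KO recovery, and all 12 fell in WT recovery, with medians of 0.42 and -1.31. BAG3, a co-chaperone of HSP70, rose by 0.84 ± 0.12 in KO and fell by 1.58 ± 0.12 in WT. At recovery 11 of the 12 were higher in KO than in WT and none was lower, while 63.1% of all genes were called (31.8% higher). Of 12 regulators tied to mitochondrial stress, 6 rose and 1 fell in KO recovery, and 4 rose and 4 fell in WT recovery. For these 2 lists too, the shares over all genes were 41.8% called in KO recovery and 50.8% in WT recovery. DDIT3, which encodes CHOP, rose in both lines, by 1.86 ± 0.11 in KO and 0.91 ± 0.10 in WT. ATF4, ATF5, HSF1 and NRF1 rose in KO by 0.26 to 0.39, and were the 4 that fell in WT, with changes of -1.26 to -0.41. TFAM, the factor that packages and transcribes mitochondrial DNA, fell by 0.78 ± 0.10 in KO recovery and was higher in KO than in WT by 1.24 ± 0.10 at heat shock. These lists and the 10 genes share the length and GC effects given above, whose part in the list counts was not tested.

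**Figure D5:**
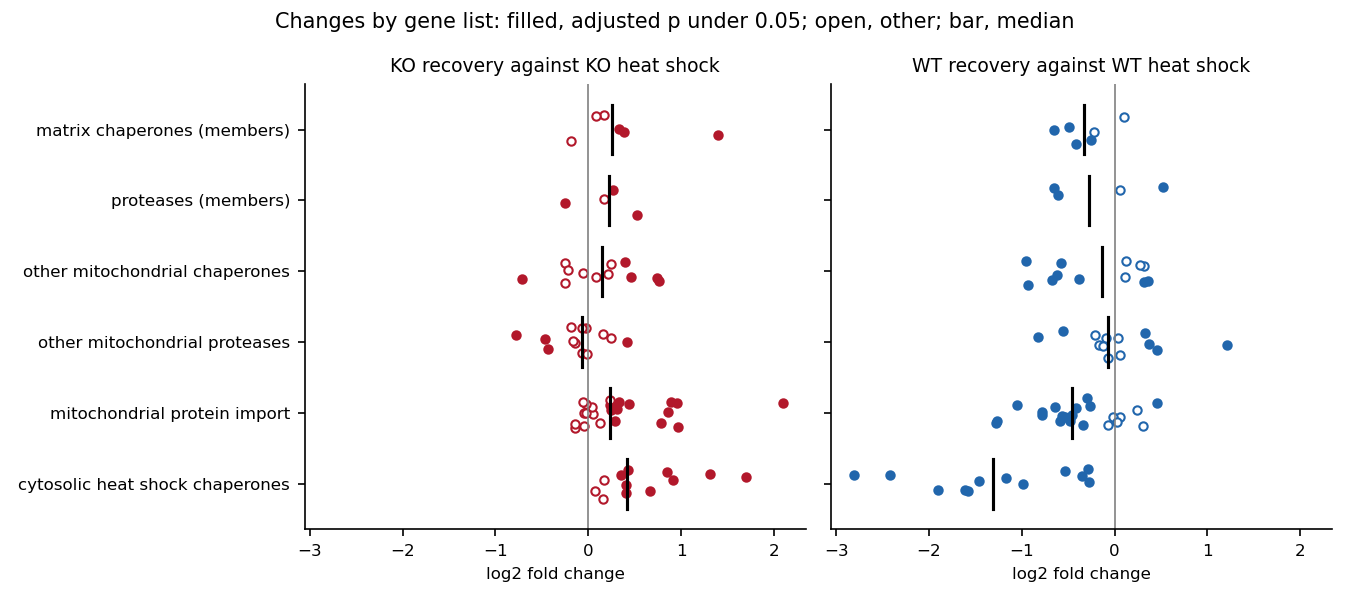
Log2 fold change of recovery over heat shock (horizontal axis) in KO (left, red) and WT (right, blue) for every tested gene of 6 lists; filled points passed an adjusted p under 0.05, open points did not, and black bars are list medians. The medians of the import list lie at 0.24 in KO and -0.46 in WT, and those of the cytosolic chaperones at 0.42 and -1.31.

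Over the 8 libraries the genes whose log2 level followed HSPE1 most closely were MRP63 (r = 0.983), COX6A1 (r = 0.982), UQCRQ (r = 0.979), PRDX4 (r = 0.978) and ERH (r = 0.977). COX6A1 and UQCRQ encode respiratory chain subunits, MRP63 a mitochondrial ribosomal protein and PRDX4 a peroxiredoxin of the endoplasmic reticulum. The transcripts of COX6A1, UQCRQ, PRDX4 and ERH, at 572 to 1124 bases, are short like that of HSPE1 (950), and that of MRP63 has 2246. Short transcripts moved in this direction more generally, and the part of length in this likeness was not tested. COX6A1 rose by 0.95 in KO recovery and UQCRQ by 0.97, against 1.40 for HSPE1. HSPD1 was followed by SEL1L (r = 0.996), CHMP7 (r = 0.996), SULF2 (r = 0.995) and NRBP1 (r = 0.994), and none of these was among those named for HSPE1. Among the 10 genes themselves HSPD1 and GRPEL1 ran closest (r = 0.988), then LONP1 and CLPP (r = 0.949), CLPP and CLPX ran opposite (r = -0.941), and HSPD1 and HSPE1 had r = 0.404. These values describe 8 libraries of 4 groups that share their scaling, and so rest on few independent points.

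The authors' deposited table gives a change and a q-value for each pair of libraries without using the other pair. For HSPE1 the authors' deposited table lists log2 changes of 1.33 and 1.22 in KO and -0.26 and -0.44 in WT. For HSPA9 the authors' deposited table lists -0.33 and -0.29 in KO, with q of 1.02e-116 and 4.41e-107, and 0.28 and 0.20 in WT, where the tests across replicates given above did not pass. For HSPD1 the authors' deposited table lists -0.10 (q = 9.14e-20) and 0.01 (q = 0.341) in the KO pairs. On the same counts, TMM scaling gave HSPA9 pairs of -0.17 and -0.20 in KO and 0.14 and 0.05 in WT. The HSPD1 pairs in KO were 0.07 and 0.09, so the first differs in sign. The deposited changes thus differ from those given above in scaling as well as in the test.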

How the data were processed

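Total RNA of 8 HCT116 libraries was poly-A selected or depleted of ribosomal RNA (which library had which is not stated), prepared with the dUTP method and sequenced as 50-base single reads, per the labels' protocols. CASAVA, TopHat and the build hg19 appear in the submitters' processing notes; the counting program, its annotation and its strand setting are not named. The authors deposited 4 tables, 1 per line and replicate, each with raw read counts per Ensembl gene for a recovery and a heat shock library, listed as NA where a gene had no read (taken as 0). Per the file headers, the tables also hold a log2 fold change normalized by the authors, and a Benjamini-Hochberg q-value per gene.

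Counts were tested here with edgeR 4.0.16 (R 4.3.3): filterByExpr, TMM scaling, quasi-likelihood F test on all 8 libraries and Benjamini-Hochberg adjustment over the 17471 tested genes, with a threshold of 0.05. Recovery was compared within matched pairs of line and replicate, the pairing the design text describes (2 residual degrees of freedom), and KO with WT without a block (4 residual degrees of freedom). Values after ± are standard errors unless called SD. In counts simulated for KO recovery, 96 of 100 genes changed by 1 on the log2 scale and 26 of 100 changed by 0.5 were called. For the difference of the responses these were 51 and 4 of 100. The simulation gave every gene the same dispersion, had no pair effect and left most of its 16781 genes unchanged. Far more genes were called in the data, so these shares are not the power of the tests above. Alternatives were RLE and upper-quartile scaling, no filter, DESeq2 1.42.0, the other block setting, each library left out, pseudogene copies added, and offsets per library for transcript length and GC content. With a library left out, the recovery change of its line rests on 1 pair, and its group on 1 library in KO against WT. A call lost there also reflects the smaller sample. Lengths, GC content and coordinates come from GENCODE 29 (GRCh38) by Ensembl ID, covering 95.4% of tested genes, and promoters from RefSeq. The 10 genes, the other lists, the tests and the alternatives were chosen with earlier results of these data known. All 10 genes are named, as are up to 3 genes with the lowest p per list and direction, or all where 5 or fewer moved, the 5 genes most like HSPE1 and HSPD1, and overlapping genes or copies; 1 gene that this rule takes is not reported here. Counts carry no molecular identifiers, and intervals cover library spread alone.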

Additional observations from a re-analysis of the deposited data

Results flagged for a closer look

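For 7 of the 10 genes the recovery change in KO differed from that in WT by the interaction test. The same test called 56.3% of all genes (28.5% positive and 27.8% negative). The KO minus WT difference on the log2 scale was 1.89 for HSPE1, 1.18 for LONP1, 0.87 for CLPP, 0.82 for GRPEL1, 0.79 for TRAP1, 0.59 for DNAJA3 and -0.77 for CLPX. Without offsets for transcript length and GC content, both KO pairs moved one way and both WT pairs the opposite way in each of these genes. Fitted changes with the offsets had the same sign in both lines for CLPP, CLPX and DNAJA3. They were -0.10 in KO and -0.50 in WT for CLPP, 0.10 and 0.36 for CLPX, and 0.19 and 0.05 for DNAJA3. The KO values of these genes did not pass. HSPE1, LONP1, GRPEL1 and TRAP1 kept opposite signs. The share of all genes with opposite directions was not counted. With offsets for transcript length and GC content the differences of HSPE1 (1.92), GRPEL1 (0.93), LONP1 (0.51) and CLPP (0.41) were still called, those of TRAP1 (0.29), DNAJA3 (0.13) and CLPX (-0.26) were not, and that of HSPD1 (0.58) was called in addition, as was that of HTRA2 (-0.52). Whether the libraries of the 2 lines also differ in RNA selection was not tested, since the labels do not give it per library.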

How the results depend on the processing

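Over 750 member values under alternatives, 652 kept their direction and side of the threshold. With the sign kept, 63 lost the call and 20 gained one. The other 15 changed sign, and some of these lost or gained a call as well. Leaving out 1 library left 1 to 7 members called in KO recovery (1 to 6 higher, 0 to 1 lower; 2838 to 8244 of all genes), 6 to 10 in KO against WT at heat shock (2 to 4 higher) and 5 to 8 higher at recovery. It moved HTRA2 in WT recovery between -0.043 and 0.14. The recovery change of a line that lost a library rests on 1 pair, so these counts also reflect the smaller sample. In KO recovery 0 members were lower with no filter, with DESeq2 (4801 genes called in all, against 7295) or with length and GC offsets. Over all genes 3349, 2416 and 2581 were lower in these runs, in that order. With the replicate block and those offsets, signs turned in KO recovery for HSPA9 (0.10), CLPP (-0.10), CLPX (0.10) and HTRA2 (-0.077). In WT recovery they turned for HSPA9 (-0.0001) and DNAJA3 (0.053), and 2 members were higher, as were 4461 of all genes. In the difference of responses they turned for HSPA9 (0.10) and HTRA2 (-0.52). For KO against WT at heat shock the offsets left 5 members called (2 higher, 3 lower), and 8934 of all genes. They turned HSPD1 (-0.043), CLPP (0.12), CLPX (-0.081) and HTRA2 (0.016). At recovery 2 members were lower with the offsets, as were 5820 of all genes, and DNAJA3 was -0.013. The cause of these changes beyond the offsets themselves was not tested. Upper-quartile scaling gave 2 members lower in the difference of responses, as were 5530 of all genes. It gave 5 members higher and 2 lower in KO against WT at recovery, among 4212 higher and 6852 lower over all genes. Without the replicate block 2 members differed negatively between the responses, as did 4960 of all genes. HSPD1 then passed in WT recovery (-0.23) and in the difference (0.31), while CLPP in KO recovery (0.26) did not. Same-numbered libraries did not deviate together, with r of -0.0138 in KO, -0.0156 in WT, -0.0489 across lines for heat shock and 0.0304 for recovery (2 pairs each), and a replicate block between the lines ended the HSPD1 call at heat shock (0.20). In simulated counts, log2 changes of 0.5 were called for 26 of 100 genes in KO recovery and 4 of 100 in the difference of responses, where 51 of 100 changes of 1 were called. Those counts had 1 dispersion for all genes and few changed genes, so the shares do not carry over to the data.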
